A study of Ovis aries and Mus musculus with 10 samples.

Results

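miR-146a and miR-146b were followed over the reproductive stages of the mammary gland in sheep and in the CD1 mouse, an outbred laboratory stock. The members are the spots whose array gene name was mmu-miR-146a or mmu-miR-146b and that were no control spots, 2 of the 567 mouse miRNAs on the array. The pair was selected on these same measured signals, the course of each over the stages, so their values over the stages are given as a description, with no test. The study hybridised total RNA to 10 Agilent miRNA arrays, 5 per species, and every stage and day had a single array. Ewes were sampled on day 15 of the cycle, on days 14, 64 and 125 of gestation and on day 60 of lactation. Mice were sampled as virgins, on days 10 and 17 of gestation and on days 2 and 10 of lactation. No animal was treated, and the labels name no genotype, no sheep breed and no age of the animals other than these days, nor whether an array held 1 animal or a pool.

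miR-146a and miR-146b are paralogues transcribed from separate genes on different chromosomes. Their mature strands share the seed, the stretch near the 5′ end that pairs with target mRNAs, and differ near the 3′ end, so they are thought to bind largely the same messages. The best known of these encode TRAF6 and IRAK1, proteins that carry the signal of Toll-like and interleukin-1 receptors to NF-kappaB. miR-146a is itself switched on by NF-kappaB and so acts as a brake on innate immune signalling, whereas miR-146b has been tied to STAT3 and interleukin-10 signalling. Both are made by leukocytes and by epithelial cells, and the gland holds both cell types. In whole tissue, more cells of a type and more of the miRNA per cell cannot be told apart.

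Each member had 2 probes with 10 spots each on every array. The probes of miR-146a were listed on mouse genome build mm9 at chr11:43187937-43187955 (A_54_P2317, 19 bases) and chr11:43187937-43187954 (A_54_P2318, 18 bases). Those of miR-146b were at chr19:46417283-46417301 (A_54_P2006, 19 bases) and chr19:46417284-46417301 (A_54_P2005, 18 bases). No member spot was saturated.

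To scale the signals, each array was divided by its own 75th percentile over the 94 miRNAs that every array detected. That percentile lay between 788.5 and 1997.6 units on the sheep arrays and between 245.6 and 936.6 on the mouse arrays, and the lowest value in each species was in lactation. A floor of 0.029 (log2 value -5.11) was applied to the scaled values. Of the 567 mouse miRNAs, 213 were detected on at least 3 arrays and entered the models, both members among them. The arrays of virgin mice and of mouse gestation day 10 were on 1 slide and the other 8 on another. Epithelial marker miRNAs were measured throughout, with 6 or 7 of 7 above the floor on every array, whereas the liver marker miR-122 and the neural markers miR-124 and miR-9 were at the floor on all arrays. Striated muscle markers were above the floor, 4 of 4, in virgin mice and at mouse gestation day 17, and 1 or none of them on the other arrays.

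miR-146b was low in sheep through cycle and gestation and high in lactation. Its scaled signal was 0.0333 in cycle, 0.049, 0.0157 and 0.029 on days 14, 64 and 125 of gestation, and 0.382 on day 60 of lactation. Lactation stood apart from the other 4 sheep arrays, which did not follow the order of gestation. Day 64 was below the floor and day 125 just above it, and all 10 spots of the brighter probe were well above background on both. That probe was 0.97 higher at day 125 than at day 64 on the log2 scale, and the miRNA 0.89 higher with a floor 4 times lower. Lactation was 3.72 ± 0.04 above gestation day 125 on the log2 scale, a 13.1-fold difference, and 3.52 ± 0.02 above cycle. The error after a step between 2 arrays is the standard error between spots, which covers spots within these arrays and not animals.

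In the mouse, miR-146b was higher at each later stage, except in the authors' value table. There gestation day 10, at 155, lay below virgin mice, at 172. The scaled signal of miR-146b was 0.0705 in virgin animals, 0.115 at gestation day 10, 0.553 at day 17, 1.35 at lactation day 2 and 3.87 at day 10. The step between gestation days 10 and 17, at 2.26 ± 0.03 on the log2 scale, was the largest of the 4, and was 0.99 with the authors' value table, where it was not the largest. In sheep, by comparison, gestation day 125 was at -5.11, just above the floor. These 2 days of mouse gestation lay on different slides, so stage and slide cannot be told apart for that step. Within a slide, gestation day 10 was 0.71 ± 0.04 above virgin, and lactation day 10 was 2.80 ± 0.02 above gestation day 17. How the onset differs between the species was not tested, because each stage and day had 1 array.

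**Figure D1:**
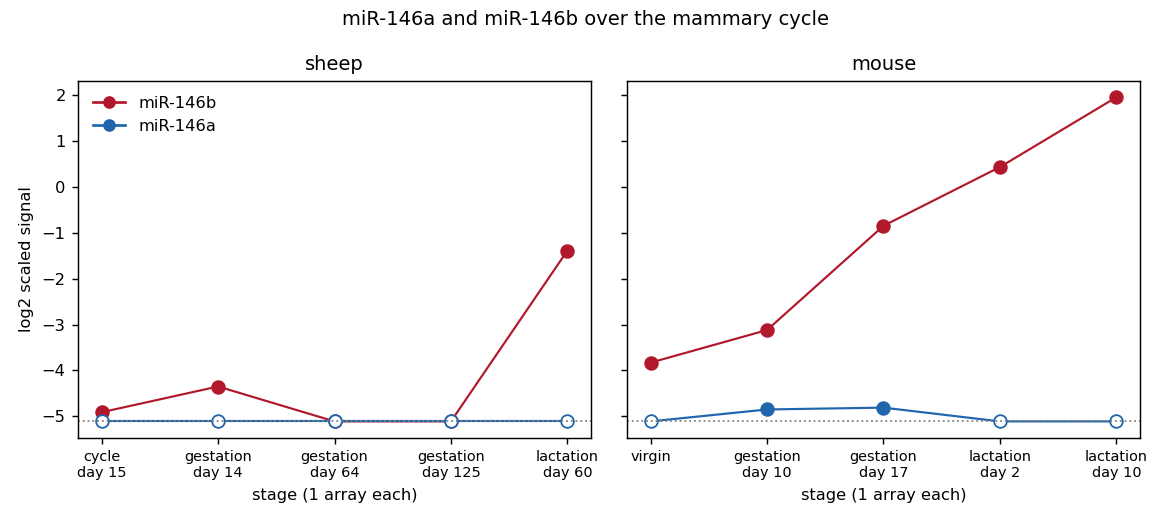
Log2 scaled signal of miR-146b (red) and miR-146a (blue) on each sheep array (left) and mouse array (right), in stage order; open circles lie at the floor, drawn as a dotted line at -5.11. miR-146b is far from the floor in sheep only in lactation, at -1.39, and in the mouse climbs over the stages to 1.95, while miR-146a stays at or just above the floor.

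miR-146a was not detected on any of the 5 sheep arrays. Its signal before scaling, the mean of both probes, was -3.80 in cycle, -2.27, -2.91 and -3.99 on days 14, 64 and 125 of gestation, and -3.04 in lactation, all below background. On the sheep arrays 1 of its 100 spots was marked well above background, and that spot was also marked as an outlier and left out. The probes were designed for mouse, and the match of each to the sheep miRNA was not examined here, so absence of the miRNA and a poor match cannot be told apart.

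In the mouse, miR-146a had a weak signal that was highest in gestation, though not on both gestation arrays in the authors' value table. Before scaling it was 10.6 in virgin mice, 24.4 and 33.4 on days 10 and 17 of gestation, and 8.67 and 0.25 on days 2 and 10 of lactation. The software called it detected on every mouse array but that of lactation day 10. Nearly all of this signal came from probe A_54_P2317, which averaged 21.0 ± 3.4, 47.3 ± 6.1, 58.1 ± 5.3, 19.3 ± 3.0 and 2.43 ± 2.88 on the 5 arrays in stage order (SD over 10 spots). The shorter probe read at most 8.66 ± 4.01, at gestation day 17. All 10 spots of the longer probe were well above background on both gestation arrays, against 1 spot in virgin animals, 3 at lactation day 2 and none at day 10.

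After scaling, only the 2 gestation arrays of the mouse were above the floor, at -4.85 and -4.81 on the log2 scale. Lactation was then 0.28 below gestation in the mouse. That difference understates what the probe showed, because the floor holds the lactation arrays up. On the scaled level of A_54_P2317 alone, lactation was at 0.049 and 0.0099 on days 2 and 10, and gestation at 0.0673 and 0.062 on days 10 and 17. The weakest probe signal that counted as well above background was 0.0479 at lactation day 2 and 0.0759 at day 10, so a probe at the gestation level would not have counted as well above background on the array of lactation day 10. With lactation held at these limits, or at the probe's own signal where that was higher, its mean log2 level was 1.06-fold below that of gestation. This is no lower bound, because the limit at lactation day 10 lay above both gestation values. Over the other settings the log2 difference of miR-146a in the mouse was between -1.48 and 0.65.

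**Figure D2:**
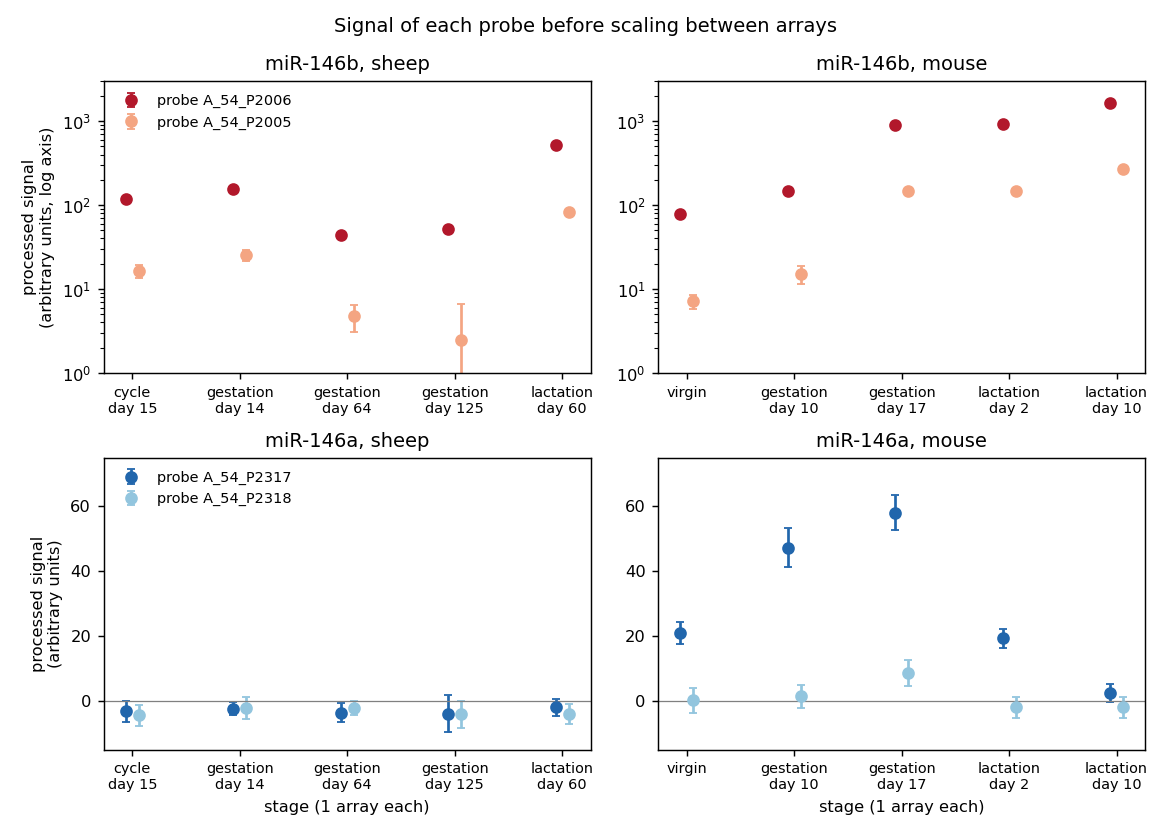
Processed signal of each probe before scaling, in arbitrary units, as mean and SD over up to 10 spots per array, for miR-146b (top, log axis) and miR-146a (bottom, linear axis), with sheep on the left and mouse on the right. Both miR-146b probes are highest in lactation in either species and differ in brightness, and between sheep gestation days 64 and 125 they move in opposite directions, while of the miR-146a probes only A_54_P2317 reads clearly above 0, in the mouse.

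The 2 probes of miR-146b differed in brightness and gave like steps where most spots of both were well above background. A_54_P2006 read 520 ± 8 in sheep lactation and 52.0 ± 2.4 at sheep gestation day 125, while A_54_P2005 read 81.9 ± 3.8 and 2.50 ± 4.19 there (SD over 8 to 10 spots after outlier spots were left out). In the mouse, A_54_P2006 read 1626 ± 41 at lactation day 10 and 77.2 ± 4.2 in virgin animals, and A_54_P2005 read 272 ± 7 and 7.13 ± 1.37. The longer probe was 6.0 to 10.8 times as bright as the shorter on 9 arrays. At sheep gestation day 125 the ratio was 20.8, where the shorter probe was within its spot spread of 0. From mouse gestation day 17 to lactation day 10 the probes gave log2 steps of 2.80 and 2.81.

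The ratio of the paralogues within an array does not depend on how arrays are scaled. The ratio of miR-146b to miR-146a signal was 4.68-fold higher at gestation day 17 than at gestation day 10, or 2.23 ± 0.09 on the log2 scale, and these arrays lay on different slides, so stage and slide cannot be told apart for it. Between gestation day 17 and lactation day 2, on the same slide, the paralogues differed before scaling. miR-146b read 532 at lactation day 2 and 518 at gestation day 17, while the longer miR-146a probe read 19.3 and 58.1 with 3 and 10 of its 10 spots well above background. The lactation array was the dimmer, with a 75th percentile for scaling of 394.2 units against 936.6. After scaling, the longer miR-146a probe was at 0.049 in lactation and 0.062 in gestation, and miR-146b at 1.35 and 0.553. No fold of the ratio is given for lactation or virgin mice, where most miR-146a spots were not well above background. At lactation day 10, where miR-146b was brightest, the miR-146a probes read 2.43 and -1.93, so they did not follow the miR-146b signal.

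The scaling carried part of the miR-146b course. Before scaling, its signal in stage order was 66.5, 89.7, 24.4, 27.3 and 301 in sheep, and 42.2, 80.8, 518, 532 and 949 in the mouse. Sheep lactation was thus 11.0-fold above gestation day 125 also without scaling. Mouse lactation day 2 was 1.03-fold above gestation day 17 without scaling, against 2.44-fold with it. Lactation day 10 was 1.83-fold above gestation day 17 without scaling, against 6.99-fold with it.

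Over both species, miR-146b was higher in lactation than in gestation by 3.40 ± 0.67 on the log2 scale in limma's additive model of species and stage class. Its mean log2 level was 0.33 ± 1.67 on the 3 lactation arrays and -3.71 ± 1.79 on the 5 gestation arrays (SD). In sheep alone the difference was 3.47, an 11.1-fold level, and in the mouse 3.18, or 9.05-fold. Among the 213 miRNAs the sheep value was the second highest, after miR-375, and the mouse value the highest, against a median of 0 over all 213 in both species. That median counts in miRNAs held at the floor, 28 of them on every array, whose difference is 0. The ranks are a description, because miR-146b was selected on this course. With only the slide that holds 8 arrays, the difference over both species was 2.80 and that in the mouse 2.05. Without scaling the mouse difference was 1.80. In the comparison of lactation with gestation 2.82% of the 213 miRNAs passed, 1.41% higher and 1.41% lower, and nothing is read from that for miR-146b, which was selected on it.

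**Figure D3:**
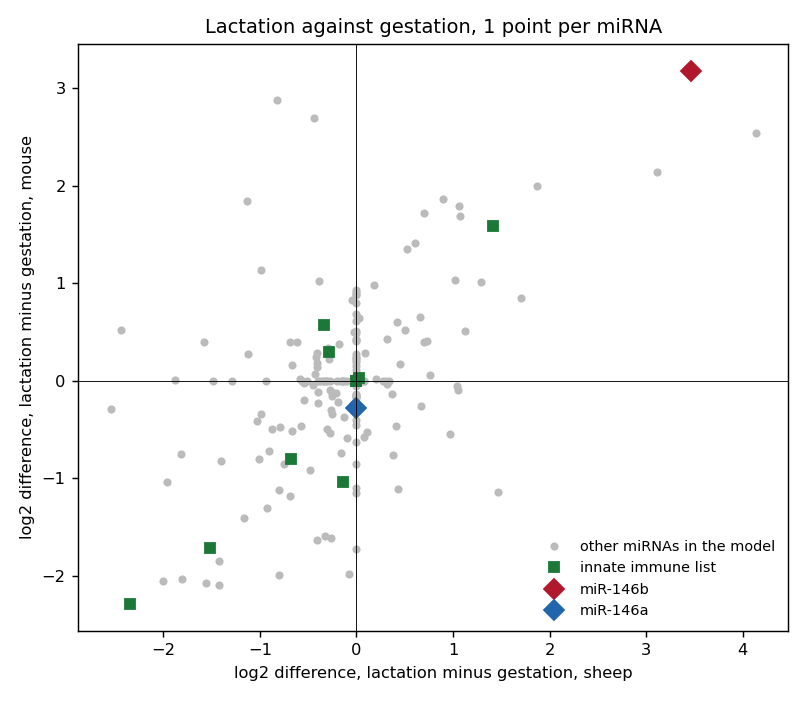
Log2 difference between lactation and gestation in sheep (horizontal) and in mouse (vertical) for each of the 213 miRNAs, 1 point per miRNA, with miR-146b (red diamond), miR-146a (blue diamond) and the innate immune list (green squares). miR-146b lies at 3.47 and 3.18 in the upper right, and miR-146a at 0 and -0.28 near the origin.

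miR-146b was lower in sheep than in mouse. Its log2 level was -4.91 in cycling sheep and -3.83 in virgin mice, between -5.11 and -4.35 in sheep gestation and -3.12 and -0.85 in mouse gestation, and -1.39 in sheep lactation and 0.43 and 1.95 in mouse lactation. Sheep was below mouse in each of the 3 stage classes with no overlap of arrays, as were 14.6% of the 213 miRNAs. The not pregnant class had 1 array per species, so it could only overlap by a tie. Adjusted for stage class, the difference was -2.41 ± 0.58 (adjusted p = 0.0271 by limma over the 213 miRNAs). The days within a class were not matched between the species, and miR-146b differed between days of a class. Species and day of the reproductive course therefore cannot be told apart in this difference. In this comparison 46 miRNAs, or 21.6%, passed, with 18, or 8.45%, higher in sheep and 28, or 13.1%, lower, so a call there is not rare. miR-146a differed by -0.14 ± 0.06 with an adjusted p of 0.126 by limma, at the floor on all 5 sheep arrays and on 3 mouse arrays. It entered the model through mouse arrays alone, being detected on no sheep array. With sheep held at the floor its difference could not be positive, so nothing is read from that value.

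The call for miR-146b came from the same arrays on which the pair was selected, and it rested on single arrays. Its adjusted p was 0.0587 without sheep gestation day 14, 0.0616 without day 64, 0.054 without day 125, 0.0883 without sheep lactation and 0.0559 without mouse lactation day 10, with differences between -2.48 and -2.22. It was 0.168 without scaling, with a difference of -1.42, and there the median over all miRNAs was 0.69. On the slide with 8 arrays the difference was -3.33 ± 0.60 (adjusted p = 0.0303). The split of all calls moved with the scaling, from 18 higher and 28 lower in sheep to 69 and 18 without scaling, 23 and 23 with the percentile over all miRNAs, 22 and 23 with quantile normalization, 9 and 51 with normexp, and 3 and 11 with the authors' value table. Species and the match of mouse probes to sheep miRNAs cannot be told apart.

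Other miRNAs tied to Toll-like receptor and NF-kappaB signalling did not share the course of miR-146b as a group. Of 13 listed besides the members, 10 entered the model, of which 4 were above 0 and 4 below 0 between lactation and gestation. The other 2 were at the floor on all arrays. They set the median of the list to 0, so nothing is read from its match with the median over all 213. One passed, miR-212, transcribed together with miR-132, higher in lactation by 1.53 ± 0.25 (adjusted p = 0.0486 by limma), against a background of 1.41% called higher. It passed under 2 of 22 other settings, which are a lower floor and leaving out sheep gestation day 125. Those 2 also called miR-125b-5p and miR-199a-5p lower. Without calling miR-212, no scaling called miR-125b-5p, miR-199a-5p and miR-21 lower, and normexp called miR-125b-5p lower. miR-199a-5p, made by fibroblasts, was at -2.30 ± 0.63, miR-125b-5p, which targets TNF, at -1.62 ± 0.38, and miR-21, induced by STAT3, at -0.79 ± 0.30, with adjusted p values of 0.118, 0.0759 and 0.243 by limma. miR-155, the other miRNA best known from activated leukocytes, was at the floor on all 10 arrays, as was miR-132, and miR-9, miR-147 and miR-187 were detected on none. The software called miR-155 detected on 4 arrays and miR-132 on 3, so their place at the floor does not mean absence.

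Between the species, 4 of the 10 innate immune miRNAs passed, all lower in sheep, against 13.1% called lower over all miRNAs. These were the granulocyte miRNA miR-223 at -2.59 ± 0.36 (adjusted p = 0.00293), miR-125a-5p at -1.22 ± 0.23 (adjusted p = 0.0109), miR-212 at -0.93 ± 0.22 (adjusted p = 0.0265) and let-7i, which targets TLR4, at -0.71 ± 0.16 (adjusted p = 0.0229), each by limma. The median of the list was -0.24, against 0 over all miRNAs, both with the miRNAs held at the floor counted in. On the slide with 8 arrays only miR-223 passed, which was called lower under all 20 alternatives, and without scaling miR-223 was lower and miR-21, miR-125b-5p and miR-199a-5p were higher in sheep.

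Summed leukocyte markers had less signal in lactation than in gestation in both species, while summed epithelial markers had more in the mouse and overlapped in sheep. The summed scaled signal of the 6 leukocyte markers was 0.2 in lactation against 0.78 to 1.1 in gestation in sheep, and 0.38 and 0.54 against 0.62 and 0.8 in the mouse. Of these markers 1 was above the floor in sheep lactation, 4 on the other sheep arrays and 3 on every mouse array, and miR-155 was at the floor on all. None of the 6 passed between lactation and gestation over both species, where 5 were below 0. The members differed between the species. In the mouse, miR-142-5p and miR-150 were at the floor on all arrays. There the difference was 0.01 for miR-142-3p, -1.04 for miR-223 and -0.74 for miR-342-3p. In sheep it was -1.88 for miR-142-3p, -1.49 for miR-142-5p, -0.515 for miR-150, -0.14 for miR-223 and -0.16 for miR-342-3p. The summed signal of the 7 epithelial markers was 10.2 in sheep lactation against 3.86 to 11.6 in gestation, and 10.9 and 14.3 against 3.08 and 6.63 in the mouse. At sheep gestation day 125 the epithelial sum was 11.6 while miR-146b was just above the floor. None of the 7 passed, with 6 above 0 and 1 below. The summed signal of the 5 fibroblast and smooth muscle markers measured was 0.81 in sheep lactation against 1.19 to 2.78 in gestation, and 0.92 and 0.64 in mouse lactation against 2.95 and 1.75. None of the 5 passed, all 5 were below 0, and their median difference was -1.84. The summed signal of the 3 erythroid markers was 0.61 in sheep lactation against 0.17 to 0.21 in gestation, and 2.6 and 3.96 in mouse lactation against 1.81 and 1.7. None of the 3 passed, and all 3 were above 0 over both species, with a median of 0.41. In sheep only miR-451 was above the floor. The erythroid sum was highest in virgin mice, at 5.97. The part of cell composition in the miR-146b course was not tested.

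**Figure D4:**
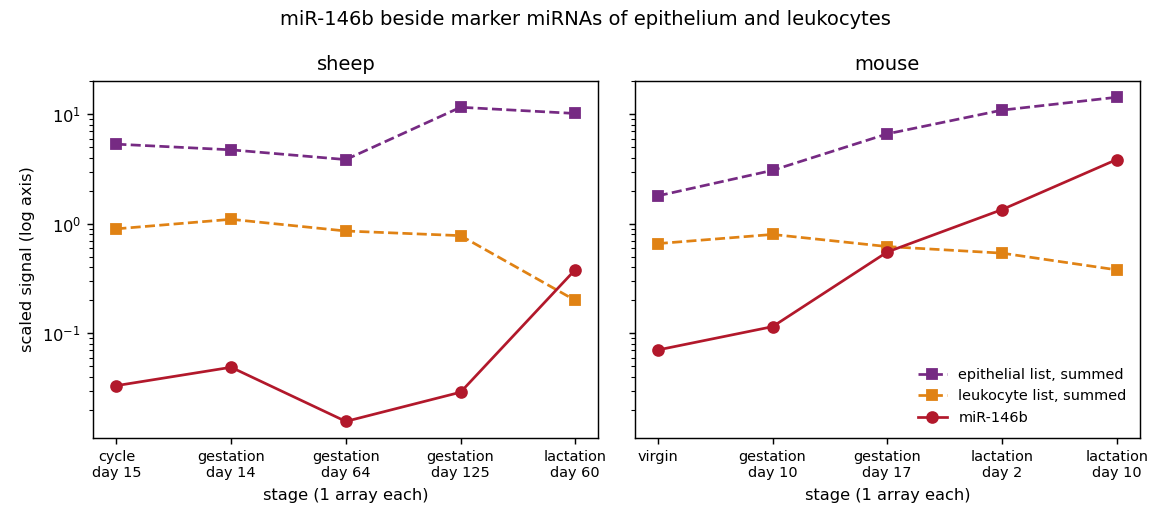
Scaled signal (log axis) of miR-146b (red), of the 7 epithelial markers summed (purple) and of the 6 leukocyte markers summed (orange) on each sheep array (left) and mouse array (right). In sheep lactation miR-146b is at 0.382 while the leukocyte sum is at its lowest, 0.2; at sheep gestation day 125 the epithelial sum is 11.6 while miR-146b is just above the floor.

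The courses most like that of miR-146b were those of miR-212, miR-30b, miR-148a, miR-375 and miR-10b. Likeness was the Pearson correlation of log2 values over the 10 arrays after the mean of each species was subtracted, among 142 miRNAs above the floor on at least 3 arrays. It was 0.92 for miR-212, 0.90 for miR-30b, 0.89 for the milk miRNA miR-148a, 0.87 for miR-375, first found in pancreatic islets, and 0.85 for the Hox-cluster miRNA miR-10b. All these values share arrays, scaling and the lower signal of the lactation arrays. The sizes differed: lactation minus gestation was 3.47 in sheep and 3.18 in the mouse for miR-146b, 4.14 and 2.54 for miR-375, 3.11 and 2.14 for miR-148a, and 0.45 and 0.17 for miR-10b.

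Timing set these miRNAs apart from each other before lactation. miR-148a was at -0.19 at sheep gestation day 125 and -2.75 at day 64, while miR-146b was just above the floor at day 125 and below it at day 64. miR-375 was at the floor on every gestation array of both species, while miR-146b was at -0.85 at mouse gestation day 17. These values come from 1 array each and their differences were not tested. For miR-146a the 5 closest courses were those of miR-203, miR-690, miR-196a, miR-195 and miR-205, at 0.83, 0.78, 0.68, 0.65 and 0.64, but that measure rests on the 2 mouse arrays where miR-146a was above the floor. Under 7 alternatives of scaling, background, probe choice and floor, 3 or 4 of the 5 were again among the closest for miR-146b, and 1 to 4 of the 5 for miR-146a.

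**Figure D5:**
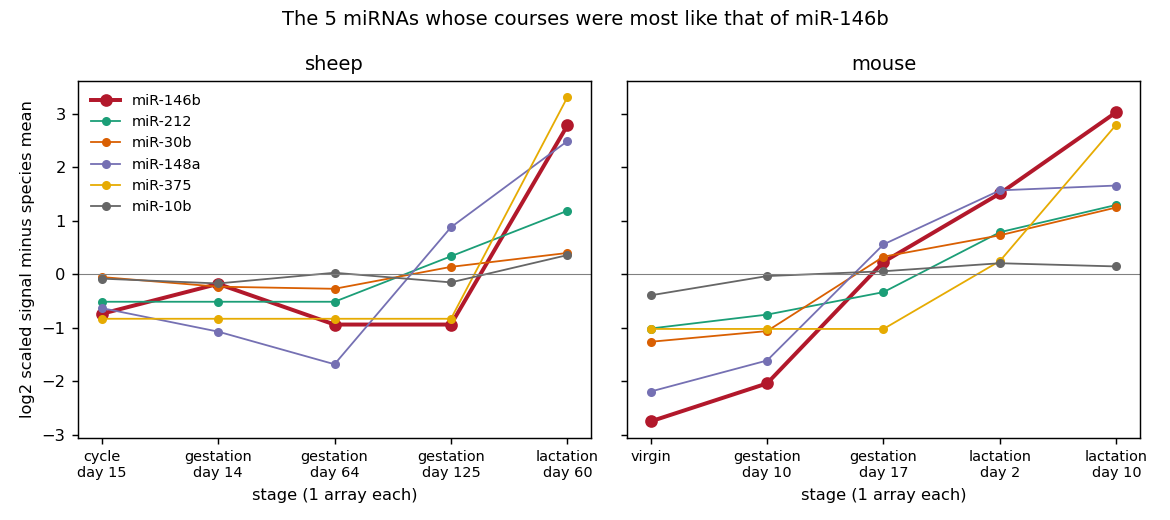
Log2 scaled signal minus the species mean for miR-146b (thick red) and the 5 miRNAs with the most similar course, on each sheep array (left) and mouse array (right). miR-148a is already high at sheep gestation day 125, where miR-146b lies just above the floor and miR-375 at it, and in the mouse miR-375 leaves the floor only in lactation.

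The passenger strand of the miR-146b hairpin, mmu-miR-146b*, was below the floor on all 10 arrays as the mean of its 4 probes. The software called it detected in sheep lactation and at mouse gestation day 17, with mean signals before scaling of 1.39 and 7.11. Its brightest probe, A_54_P3628, read 13.8 ± 3.1 and 29.5 ± 5.2 there (SD over 5 spots), with none and 5 of 5 spots well above background.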

How the data were processed

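Agilent scanner files of 10 one-colour (Cy3) miRNA arrays were analysed. Per the labels, snap-frozen mammary tissue was extracted with Trizol and 100 ng of total RNA was labelled. The deposited signals are intensity values on a linear scale, background-subtracted and detrended within each array by Agilent Feature Extraction 10.5.1.1 per the file headers, without a normalization across arrays (the submitters' processing notes give 9.5). The flags for detection, outliers and signal over background came from the same software. The authors' deposited value table equals the total signal per miRNA times 1 constant per array (within 0.1% for 98.65 to 100% of miRNAs with a total signal above 50). Its medians were -0.603, 0.303, 0.26, -3.94 and -2.803 for sheep and -11.364, -5.227, 0.76, -2.349 and -11.605 for mouse, each in stage order, and the basis of the constants is unknown.

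Outlier spots were left out, spots were averaged per probe and probes per miRNA. The 5th percentile of scaled values of detected miRNAs was taken per array, and the highest was the floor. limma 3.58.1 in R 4.3.3 (lmFit, eBayes, Benjamini-Hochberg, threshold 0.05) fitted species and stage class, with 6 residual degrees of freedom. The fit was tested on simulated data without a floor, so that test does not cover values held at the floor. Virgin mice and cycling sheep made up the not pregnant class. With 1 array per stage and day the spread comes from different days and species, so p-values measure the spread between these arrays, whose number limits the precision. The floor held 28 of the 213 tested miRNAs on every array.

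The members and lists were chosen with earlier results of these data known. Named miRNAs were the members, the innate immune miRNAs called in a comparison or among the 4 largest differences between lactation and gestation, and the 5 closest courses per member.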

Additional observations from a re-analysis of the deposited data

How the results depend on the processing

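miR-146b kept a positive difference between lactation and gestation under all 20 alternatives, from 2.44 without scaling to 3.98 without mouse gestation day 17, and under all 7 or 8 run within a species, from 2.49 to 4.18 in sheep and from 1.80 to 3.33 in the mouse. The mouse step between gestation days 10 and 17 was between 0.99, with the authors' value table, and 2.68. miR-146a between lactation and gestation over both species was negative under the other 19 alternatives, from -0.82 to -0.04, and 0.80 with normexp, a setting that moved the median over all miRNAs to 0.65. In the mouse it was 0.65 with normexp. Its mouse step from gestation day 10 to 17 turned to -0.41 with the percentile over all miRNAs, -0.11 with quantile normalization, -0.54 with normexp and -0.25 with the authors' value table. In that table day 17, at 19.9, lay below the floor used there, 39.3, and day 10, at 46.8, above it. The floor thus limits the size of that step. The causes of these turns were not tested.

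miR-146b between sheep and mouse stayed negative under all 20 alternatives and lost its call without scaling (-1.42), without a filter on detection (-2.41, adjusted p = 0.0984 by limma) and without 5 single arrays; without each array in turn it was between -2.77 and -1.86. Its adjusted p ranged from 0.000426 to 0.168. miR-146a was called with normexp (-1.02) and with a floor 4 times lower (-1.65), and without each array was between -0.20 and -0.10. Nothing is read from these calls, because miR-146a was detected on no sheep array and passed the filter through the mouse alone. The 46 calls between species became 87 without scaling, 14 with the authors' value table and 95 with a lower floor, and 35 to 53 without each array.

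The 6 calls of limma between lactation and gestation became 22 without scaling, 24 with a lower floor and 1 with quantile normalization, and 0 with the percentile over all miRNAs, the brightest probe, the authors' value table, no filter on detection, the slide added to the model, slide 1 alone and only the mouse arrays (29, 40, 13, 32, 28, 26 and 19 at an unadjusted p under 0.05). Without each array they were 0 to 5. Settings for the innate immune list were chosen after seeing the data. No paired analysis was possible because no replicate or animal number in the labels links 1 array to another. Signal over background limits miR-146a throughout and miR-146b in sheep gestation.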

Other observations

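In the authors' deposited table, which uses another scale per array, miR-146b was at 39 in cycling sheep, 32.5, 10.7 and 45.8 on days 14, 64 and 125 of gestation, and 545 in lactation. In the mouse it was at 172 in virgin mice, 155 and 309 on days 10 and 17 of gestation, and 1026 and 4702 on days 2 and 10 of lactation. miR-146a was below 0 on all 5 sheep arrays in that table, and in the mouse was at 43.3, 46.8, 19.9, 16.7 and 1.25 in stage order. In that table miR-146b was thus lower at gestation day 10 than in virgin mice, whereas under the percentile scaling it was higher, at 0.115 against 0.0705. miR-146a was lower there at gestation day 17, at 19.9, than in virgin mice, at 43.3.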
